A study of Homo sapiens with 4 samples.

Results

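The 35 cell cycle genes described here were read in human tumour cells grown in mice. They are 15 genes of DNA replication (S genes) and 20 genes of mitosis and its entry (G2/M genes), chosen by name out of 36601 human genes in the count matrices. The tumour cells are MCF10DCIS.com, an established human breast line that forms lesions like ductal carcinoma in situ (DCIS). They were seeded on decellularised extracellular matrix (dECM) from mouse mammary glands, either young (2 to 3 months) or aged (18 months or more). After 12 days of culture the matrix was implanted into fat pads of Rag1-/- mice, a strain without adaptive lymphocytes of the T and B lineages. Tumours were taken with the stroma around them 4 weeks later. Each matrix age gave 1 gene expression library, made after dead-cell removal and labelling with human hashing antibodies and called Pool-1 for young and Pool-2 for aged, so library and matrix age cannot be told apart. The labels do not say how many animals each pool holds and tie no hashing tag to an animal. No test across samples was possible. Intervals below are at 95% and cover counting error only.

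Proliferating cells copy their DNA in S phase and divide in M phase, and each phase has its own set of transcripts. Genes for the replication machinery are induced by E2F transcription factors when a cell leaves G1. Genes for mitosis are held down in resting cells by the DREAM complex, which binds the cell cycle genes homology region (CHR), and are raised in G2 by B-MYB and FOXM1, often together with NF-Y at CCAAT boxes. In breast cancer the protein of MKI67 is stained as the routine marker of cycling tumour cells.

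Promoter windows show the sequence difference between the groups. Of the 35 genes, 28 had windows of 300 bases around a transcription start in RefSeq (GRCh38.p14). Some genes had several windows, which overlapped in some cases and lay apart in others, as for PCNA. Each motif was searched on both strands. The CHR was searched as TTTGAA. The CCAAT box was searched by the letters of its name. The E2F site was searched as TTTGGCGC, TTTCGCGC or TTTCCCGC, and overlapping matches were counted separately. CHR letters were in 11 of 18 G2/M windows (61.1%), in 1 of 18 S windows (5.56%) and in 15.2% of all 35116 windows. E2F letters were in 3 of 18 G2/M windows (16.7%), in 11 of 18 S windows (61.1%) and in 2.74% of all windows. CCAAT letters were in 16 of 18 G2/M and 15 of 18 S windows, against 34.6% of all windows. CHR and CCAAT letters together were in 10 of 18 G2/M windows, 1 of 18 S windows and 5.90% of all windows. Matches are descriptions of letters and not binding sites.

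The following windows, each printed 5′ to 3′ on the strand of its gene, were picked from those that hold the letters searched. Levels of their genes differ between the S and G2/M classes of cells described further on. CCNB1, CENPE and KIF20A also differ widely between these classes, yet their windows held no CHR letters. The CENPE window held no CCAAT letters either. CHR and CCAAT letters on either strand are in capitals for the mitotic cyclin gene CCNB2 (chr15:59104896-59105195, plus strand), the mitotic kinase gene PLK1 (chr16:23678639-23678938, plus strand) and CDC20 (chr1:43358731-43359030, plus strand), which encodes an activator of the anaphase-promoting complex. E2F letters are in capitals for the helicase subunit genes MCM6 (chr2:135876394-135876693, minus strand) and MCM3 (chr6:52284693-52284992, minus strand) and for the licensing factor gene CDC6 (chr17:40287629-40287928, plus strand).
CCNB2: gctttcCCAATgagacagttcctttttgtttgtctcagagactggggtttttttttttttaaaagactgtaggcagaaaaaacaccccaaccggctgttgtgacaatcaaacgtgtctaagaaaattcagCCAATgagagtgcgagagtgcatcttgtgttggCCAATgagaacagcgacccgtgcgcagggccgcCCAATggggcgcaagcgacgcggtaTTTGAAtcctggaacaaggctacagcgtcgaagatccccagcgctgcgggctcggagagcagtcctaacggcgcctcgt
PLK1: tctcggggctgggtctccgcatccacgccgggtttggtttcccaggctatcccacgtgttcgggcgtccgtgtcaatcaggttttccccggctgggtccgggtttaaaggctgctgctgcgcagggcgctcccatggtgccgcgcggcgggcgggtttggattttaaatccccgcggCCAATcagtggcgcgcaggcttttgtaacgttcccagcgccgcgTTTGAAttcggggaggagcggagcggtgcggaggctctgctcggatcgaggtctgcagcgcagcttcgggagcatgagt
CDC20: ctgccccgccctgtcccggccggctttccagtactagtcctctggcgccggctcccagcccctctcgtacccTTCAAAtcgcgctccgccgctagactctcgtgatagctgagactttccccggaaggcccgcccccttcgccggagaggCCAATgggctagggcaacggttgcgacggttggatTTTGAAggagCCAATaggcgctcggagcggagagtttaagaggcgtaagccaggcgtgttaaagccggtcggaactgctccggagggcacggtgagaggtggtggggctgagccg
MCM6: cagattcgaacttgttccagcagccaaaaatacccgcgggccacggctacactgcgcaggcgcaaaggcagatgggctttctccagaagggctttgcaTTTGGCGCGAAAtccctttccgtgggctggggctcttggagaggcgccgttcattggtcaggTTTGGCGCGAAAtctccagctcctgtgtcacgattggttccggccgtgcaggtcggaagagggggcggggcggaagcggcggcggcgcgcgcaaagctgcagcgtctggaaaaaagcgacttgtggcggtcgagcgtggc
MCM3: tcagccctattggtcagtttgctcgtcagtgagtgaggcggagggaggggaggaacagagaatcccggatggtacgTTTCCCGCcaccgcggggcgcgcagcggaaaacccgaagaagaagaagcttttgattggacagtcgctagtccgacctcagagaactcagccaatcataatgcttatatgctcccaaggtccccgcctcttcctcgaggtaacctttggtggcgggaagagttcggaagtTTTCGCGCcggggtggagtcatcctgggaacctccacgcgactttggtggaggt
CDC6: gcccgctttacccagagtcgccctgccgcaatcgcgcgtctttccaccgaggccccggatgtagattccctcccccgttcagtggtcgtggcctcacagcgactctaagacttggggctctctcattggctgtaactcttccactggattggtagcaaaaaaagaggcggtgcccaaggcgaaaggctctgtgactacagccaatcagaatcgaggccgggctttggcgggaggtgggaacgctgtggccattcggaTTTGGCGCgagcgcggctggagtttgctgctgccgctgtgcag

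The CDC20 window held 2 CHR and 2 CCAAT matches, and the MCM6 window held 4 E2F matches, which overlap in pairs.

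After filters the young pool gave 2125 tumour cells with a median of 30942 human UMIs (unique molecular identifiers, each counting 1 captured transcript), and the aged pool gave 2001 with 30455. Total human UMIs in these cells were 80486385 and 77321298. A human cell was a barcode with at least 90% of its gene UMIs on human genes. Epithelial keratins marked them, with KRT17 at 3856 and 3899 CPM, the UMIs of a gene relative to all human UMIs of the cells,, KRT18 at 1337 and 1395 CPM and EPCAM at 307 and 322 CPM. TP63 was the lowest of the epithelial markers read, at 10.66 and 10.05 CPM. Among markers of other human cells, CD3E was at 0 in both pools and PTPRC at 0.012 and 0.013 CPM. COL3A1 was at 0.050 and 0.103 CPM and VWF at 0.062 and 0.026 CPM. COL1A1 was higher, at 7.13 and 7.57 CPM, as was PECAM1 at 4.96 and 5.63 CPM. The pools shared 190 barcodes, of which 4 were human in both.

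Summed levels of the cell cycle genes were nearly equal in the pools. In all comparisons that follow the young value comes first. The 15 S genes together had 425 and 431 CPM, a ratio of aged to young of 1.01 (0.997 to 1.03). The 20 G2/M genes together had 1067 and 1062 CPM, a ratio of 0.995 (0.986 to 1.01). A gene was measured in this comparison at 20 CPM or more in the higher pool and 100 UMIs in all, which 26 of the 35 reached. None of the 26 was 1.5-fold or more apart, against 12 of 5424 human genes (0.221%), 2 higher (0.0369%) and 10 lower (0.184%) in aged. The median log2 ratio was 0.04 over the 15 S genes and -0.01 over the 20 G2/M genes, and 0.0042 over all measured genes.

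Single members ranged from a ratio of 0.897 to 1.10. AURKB, the kinase of the chromosomal passenger complex, had 11.05 and 9.91 CPM, a ratio of 0.897 (0.813 to 0.989), and was below the minimum level. MCM6 had 20.7 and 22.8 CPM, a ratio of 1.10 (1.03 to 1.18). The counting interval left out 1 for 6 of the 35 genes, and none of these was 1.5-fold apart. Of the 26 members at the minimum level it left out 1 for 5, where it did so for 35.8% of all measured genes.

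**Figure D1:**
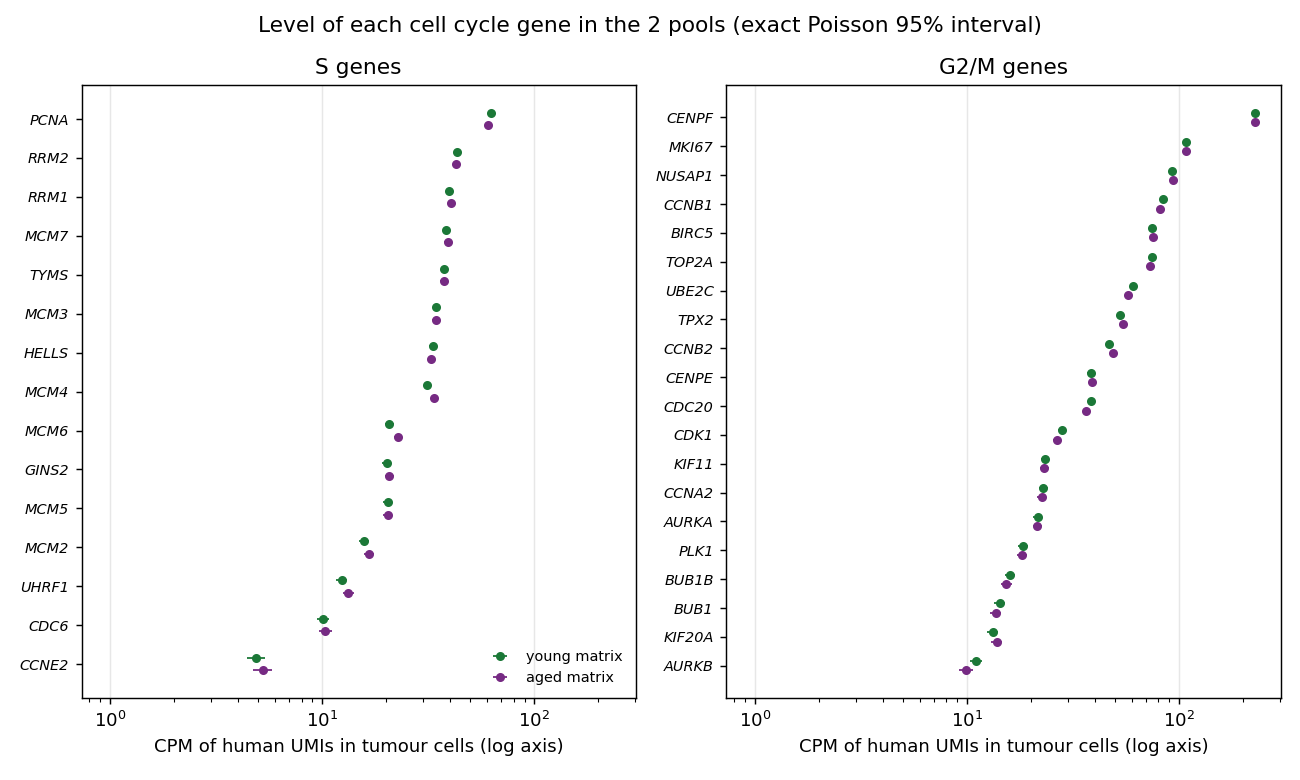
Level of each S gene and G2/M gene in human tumour cells (CPM of human UMIs, log axis) in the young-matrix and aged-matrix pools, with exact Poisson 95% intervals. The pools nearly coincide for every gene, from CCNE2 near 5 CPM to CENPF at 228 and 229 CPM.

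Levels of different genes depend on how well their 3′ ends are captured, and the order that follows is of UMIs, not of transcripts per cell. CENPF, a kinetochore protein that builds up in G2, was highest at 228 and 229 CPM. MKI67, which coats mitotic chromosomes, had 108 CPM in both pools. NUSAP1, a spindle microtubule protein, had 92.3 and 93.6 CPM. The cyclin CCNB1, which drives entry into mitosis with CDK1, had 83.8 and 81.7 CPM. TOP2A, the topoisomerase that untangles sister chromatids, had 74.7 and 73.3 CPM, and BIRC5, the survivin subunit of the passenger complex, had 74.6 and 75.4 CPM. Their counting intervals overlapped for TOP2A and BIRC5 only.

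The S genes were lower and closer to each other. PCNA, the sliding clamp of the replication fork, led at 62.9 and 60.3 CPM. RRM2 and RRM1, the subunits of ribonucleotide reductase, had 43.3 and 42.8 CPM and 39.6 and 40.7 CPM. TYMS, which makes thymidylate, had 37.7 and 37.4 CPM. The MCM2 to MCM7 genes, which encode the replicative helicase, ran from 15.8 and 16.6 CPM for MCM2 to 38.4 and 39.1 CPM for MCM7. CCNE2, the cyclin of the step from G1 to S, was lowest of all 35 at 4.88 and 5.24 CPM. In every gene the top cell held at most 2.96% of the UMIs of a pool, so no level rested on 1 cell.

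Most tumour cells carried few of these transcripts and a minority carried many. To compare cells at 1 depth, each was thinned at random to 5000 human UMIs, which left out 127 young and 138 aged cells that were shallower and kept 1998 and 1863. No UMI of any of the 35 genes was seen in 37.2% (35.1 to 39.3) and 38.3% (36.1 to 40.6) of thinned cells. The tenth of cells with the most list UMIs held 72.2% and 75.1% of all G2/M list UMIs and 52.9% and 54.1% of all S list UMIs.

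A cell was called S-high with at least 5 UMIs of the S genes and G2/M-high with at least 5 of the G2/M genes, and cycling with either. S-high cells made up 11.9% (10.48 to 13.4) of the young and 11.2% (9.77 to 12.7) of the aged cells. G2/M-high cells made up 18.7% (17.0 to 20.4) and 17.3% (15.6 to 19.1). Cycling cells made up 24.4% (22.5 to 26.3) and 23.1% (21.2 to 25.1), and the intervals of the pools overlapped for all 3 shares. The young S-high share depended on the thinning draw, and over 20 draws the mean shares were 11.1% and 11.2% S-high, 18.2% and 17.7% G2/M-high and 23.8% and 23.3% cycling. Without thinning, at 1000 CPM of a list, 22.0% of young cells were cycling.

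The list levels ran on without a gap at the minimum. With 4 S UMIs, just below it, there were 55 and 63 cells, and with exactly 5 there were 53 and 37. For the G2/M genes 27 and 31 cells had 4 UMIs and 36 and 21 had 5. S-high cells held a median of 7 and 7.5 S UMIs, while G2/M-high cells held 13 and 15 G2/M UMIs. The G2/M genes therefore stood further above the minimum than the S genes did.

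**Figure D2:**
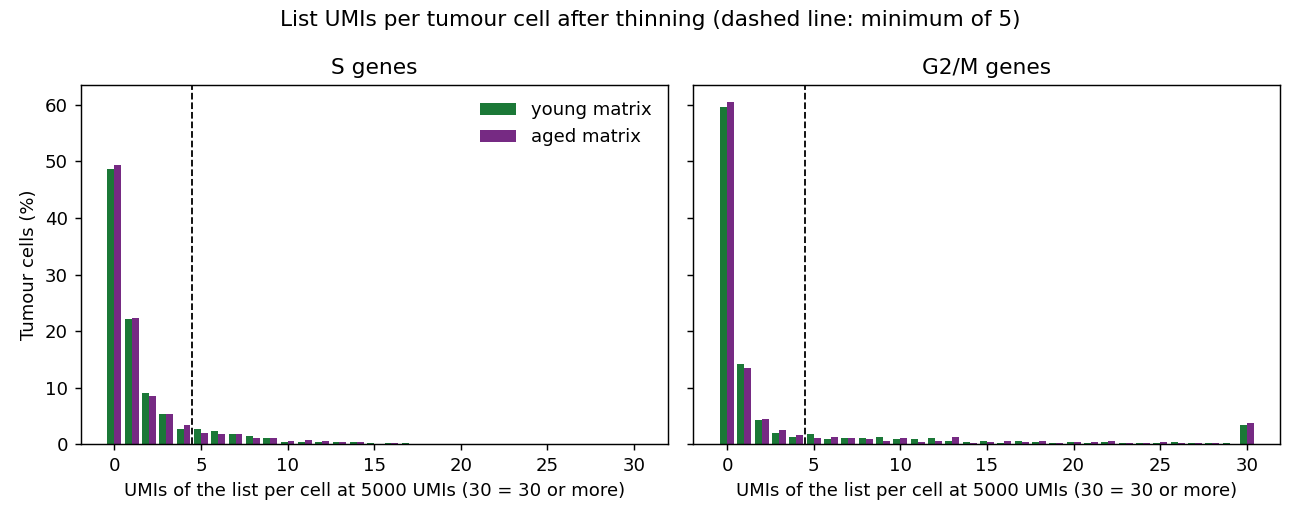
Share of tumour cells (%) by the number of UMIs of the S list or the G2/M list after thinning to 5000 UMIs, in both pools, with 30 standing for 30 or more. Most cells hold 0 or 1 UMI, and the G2/M list has the longer tail beyond the dashed line at 5.

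S-high and G2/M-high cells overlapped. Of S-high cells, 51.9% (45.3 to 58.4) and 48.1% (41.1 to 55.1) were also G2/M-high. In all, 5.71% and 5.80% of cells were S-high only, 6.16% and 5.37% were both, and 12.5% and 12.0% were G2/M-high only. These 3 classes and the remaining low cells are used from here on.

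Few host cells held enough stray human transcripts to reach these limits. Among mouse cells, which should hold no human transcript, 3.87% and 3.74% had any S UMI and 5.83% and 5.93% any G2/M UMI, at a median of 2460 and 2420.5 UMIs in all. Tumour cells thinned to 2000 UMIs had an S UMI in 32.3% and 33.4% and a G2/M UMI in 27.9% and 28.8%. With at least 2 UMIs the shares were 0.185% and 0.121% for S and 0.316% and 0.355% for G2/M in mouse cells, against 14.9% and 14.51% and 19.0% and 18.5% in tumour cells. At 5 UMIs, 0 of 12991 young and 0 of 14090 aged mouse cells were S-high, which allows a share of up to 0.0231% and 0.0213%, and 0 and 2 were G2/M-high.

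Cycling cells also differed in depth and quality. Median human UMIs before thinning were 29259 and 29114 in low cells, 45403 and 43893 in S-high-only cells, 57513 and 58605 in cells high for both, and 40258 and 47422 in G2/M-high-only cells. Mitochondrial UMIs made up 3.76% and 3.95% in low cells, 5.13% and 4.93% in S-high-only cells and 4.71% and 4.40% in G2/M-high-only cells. Median doublet scores were 0.104 in low cells of both pools, against 0.130 and 0.141 in G2/M-high-only cells. Of the cells removed for a doublet score of 0.25 or more, 39.3% and 30.8% were cycling. The part of depth, quality or doublets in the class differences was not tested.

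Cycling shares of cells with different hashing tags, which mark cells by antibody before pooling, covered a wider range within a pool than the 2 pool values did. In the young pool 34.3% (26.5 to 42.8) of 140 cells with tag H-HTO-3 were cycling, against 26.5% (22.6 to 30.7) of 472 with H-HTO-4 and 23.0% (15.6 to 31.9) of 113 with H-HTO-6. In the aged pool 17.4% (14 to 21.3) of 442 cells with H-HTO-2 were cycling, against 31.1% (24.4 to 38.4) of 180 with H-HTO-3 and 26.3% (19.9 to 33.6) of 171 with H-HTO-4. Cells with no single tag, the majority, had 22.4% and 23.6% cycling. The tag sets also differed in depth, with medians of 39071 UMIs in young H-HTO-3 cells and 30507 in H-HTO-4 cells, and 29381 in aged H-HTO-2 cells and 41615 in H-HTO-3 cells. Over cells with 1 tag alone, the summed G2/M level was 0.875 of young in aged and the S level 0.902.

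Within the cycle the S genes differed by degree in how much lower they were in G2/M-high-only than in S-high-only cells. For each member the classes were called without that member, and its level was set against low cells. Because the other members of its list chose the cells, these folds are a description. All 15 S genes were at least 3-fold higher in S-high-only cells, with median folds of 10.1 and 12.6. Of all measured genes 13.3% were called higher there, but at 1.5-fold or more in both pools and above a minimum level. The S genes were held to no minimum level, so their count and this share cannot be compared directly. In G2/M-high-only cells the S genes had median folds of 2.74 and 2.57. CDC6, MCM6 and MCM2 had much lower folds in G2/M-high-only cells. CDC6, which loads the helicase, was 16.8-fold (8.47 to 34.0) and 45.7-fold (20.2 to 116) higher in S-high-only cells and 2.12-fold (0.685 to 5.64) and 7.20-fold (2.47 to 21.5) higher in G2/M-high-only cells. MCM6 went from 10.3 and 12.6 to 1.65 and 1.84, and MCM2 from 8.66 and 8.79 to 1.80 and 1.04. CCNE2 had 2 UMIs in young and 0 in aged G2/M-high-only cells, so its level there was not resolved.

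The nucleotide supply genes were still well above low cells in the G2/M-high-only class. RRM2 was 15.2-fold and 21.2-fold higher in S-high-only cells, 30.7-fold (21.6 to 44.2) and 42.2-fold (28.5 to 63.5) higher in cells high for both, and 12.1-fold (8.53 to 17.5) and 15.4-fold (10.48 to 23.0) higher in G2/M-high-only cells. TYMS was 13.4-fold and 9.48-fold, 18.2-fold and 13.9-fold, and 9.24-fold and 4.75-fold higher in the same order. RRM1 had the smallest rise in S-high-only cells, 3.79-fold (2.52 to 5.55) and 5.64-fold (3.95 to 7.94), and was likewise highest in cells high for both. In both pools RRM2, TYMS, RRM1 and CCNE2 peaked in the cells high for both lists. In all, 9 and 10 of the 15 S genes peaked in S-high-only cells and 6 and 5 in cells high for both. UHRF1, which maintains DNA methylation, kept 7.11-fold and 8.16-fold higher levels in G2/M-high-only cells. The remodeller HELLS kept 2.74-fold and 2.26-fold, and PCNA 3.09-fold and 2.78-fold.

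The G2/M genes were all at least 3-fold higher in G2/M-high-only cells in both pools, with median folds of 46.4 and 61.3. Of measured genes 15% were called higher there, again at 1.5-fold or more and above a minimum level not set for the members. That share therefore cannot be compared directly with the count of members. In S-high-only cells the G2/M genes had median folds of 5.96 and 6.62. Their highest class was G2/M-high only for 17 and 18 of the 20 and cells high for both for 3 and 2.

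CDK1 and KIF11 were among the G2/M genes that differed least between the S-high-only and G2/M-high-only classes. CDK1, the kinase of mitotic entry, was 11.1-fold (5.90 to 20.9) and 19.1-fold (8.33 to 45.6) higher in S-high-only cells and 20.8-fold and 48.1-fold higher in G2/M-high-only cells. It was therefore 1.87 and 2.52 times as high in G2/M-high-only as in S-high-only cells, the lowest such ratios of the G2/M genes in both pools. It was highest in cells high for both. KIF11, the kinesin that pushes spindle poles apart, had ratios of 3.33 and 3.31. AURKB had 8.21 and 2.74, on 2 and 7 UMIs in S-high-only cells. MKI67 had 4.81 and 7.71, and was already 9.52-fold and 6.97-fold higher in S-high-only than in low cells.

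At the other end lay genes of late G2 and mitosis. CCNB1 was 18.6 and 19.4 times as high in G2/M-high-only as in S-high-only cells. CENPE, a kinetochore motor, had ratios of 20.5 and 12.2, CENPF 12.8 and 15.2, and CCNB2 13.9 and 12.2. CDC20 had ratios of 19.2 and 7.61, on 5 and 11 UMIs in S-high-only cells. KIF20A, a kinesin of cytokinesis, had 0 UMIs in S-high-only cells of both pools against 82 and 59 UMIs in G2/M-high-only cells. PLK1 had the largest fold over low cells, 101 (44.6 to 281) and 169 (55.8 to 837), on only 6 and 3 UMIs in low cells. AURKA, the centrosomal kinase, was 23.2-fold (14.4 to 38.9) higher in young and 79.5-fold (38.8 to 189) in aged G2/M-high-only cells, on 22 and 8 UMIs in low cells. UBE2C, the ubiquitin-conjugating enzyme of the anaphase-promoting complex, had 28.2-fold and 28.4-fold.

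**Figure D3:**
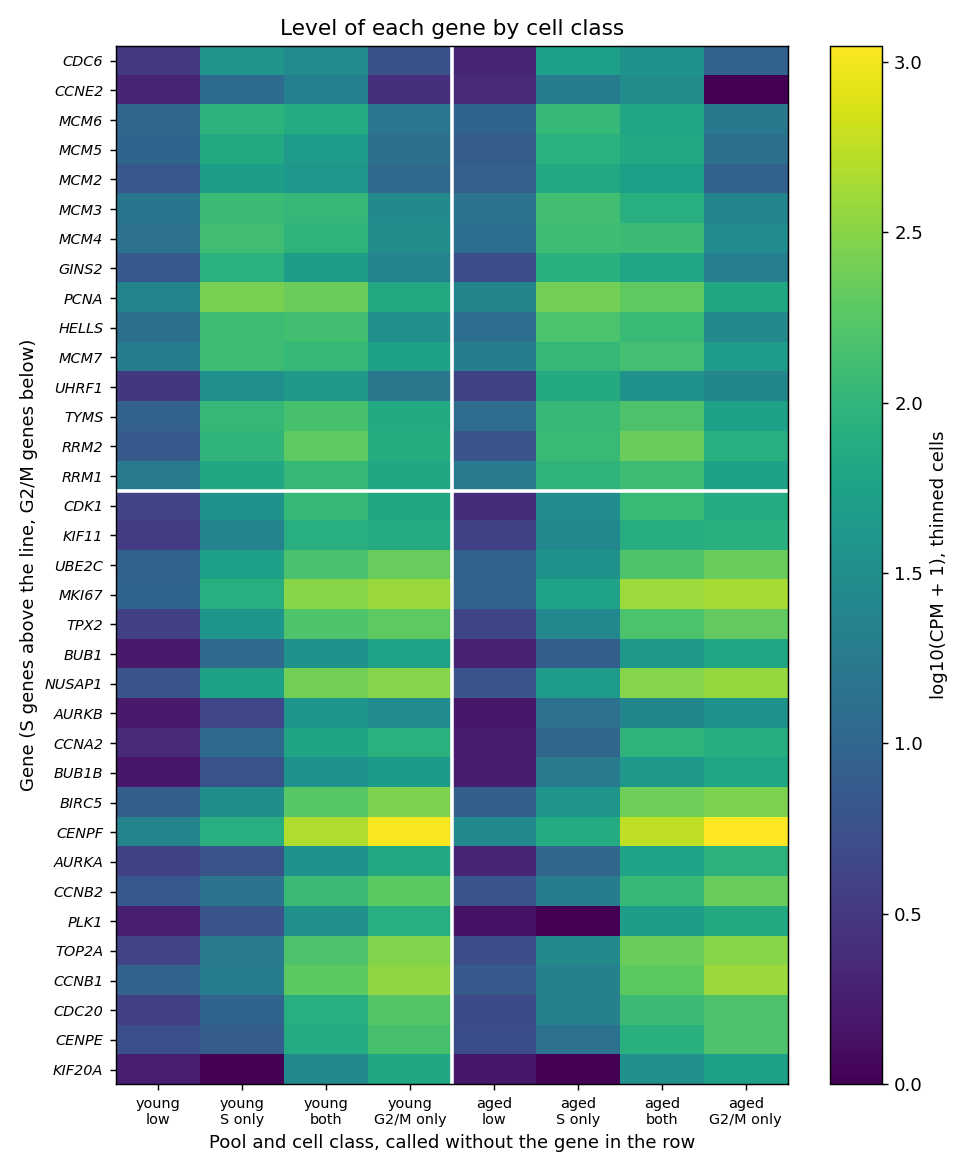
Level of each gene, as log10(CPM + 1) in thinned cells, by pool and cell class, with S genes above and G2/M genes below the white line. Genes are ordered within each part by the young ratio of G2/M-high-only to S-high-only cells, from CDC6 to RRM1 and from CDK1 to KIF20A, which was listed at 0 in S-high-only cells.

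Per cycling cell, most members were higher in the aged pool, by less than 1.5-fold. Among S-high cells called without the gene, 1 of the 15 S genes was 1.5-fold or more apart, CCNE2 at 15.3 and 24.2 CPM, a ratio of 1.58 (0.826 to 3.07) whose interval covers 1. Of 6192 genes with at least 20 CPM in 1 of the pools of S-high cells, 10.1% were as far apart. Among G2/M-high cells 0 of 20 were, where 4.77% of 6001 genes were. The interval left out 1 for 0 of the 15 S genes, against 7.01% of all genes there, and for 5 of the 20 G2/M genes, all higher in aged, against 8.6% of all genes in either direction and 4.87% higher in aged. MKI67 had 368 and 432 CPM (ratio 1.17, 1.05 to 1.31) and TOP2A had 246 and 291 CPM (1.18, 1.04 to 1.35). CENPF had a ratio of 1.10, NUSAP1 1.21 and AURKA 1.40 (1.07 to 1.83). The median ratios were 1.10 over the G2/M genes and 1.12 over the S genes, against 1.02 over all genes in both kinds of cell. Because the other genes of the same list chose the cells, the member ratios and counts are a description. Summed list levels were nearly equal in the pools, while G2/M-high shares in this draw were 18.7% and 17.3%. A higher level per chosen cell in aged then follows in part from the choice. Over 20 draws the G2/M-high shares were closer, at 18.2% and 17.7%. All ratios here rest on 1 thinning draw, and the comparison was not repeated under the alternatives.

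Other genes of the same machinery went with the members. A gene was measured here at 50 CPM or more in the higher class in both pools and called at 1.5-fold or more the same way in both. In S-high-only cells 361 of 2707 other genes were called higher (13.3%) and 200 lower (7.39%). In G2/M-high-only cells 418 of 2783 were called higher (15%) and 160 lower (5.75%). In cells high for both, 649 of 2867 were higher (22.6%) and 272 lower (9.49%). The cells were chosen by the members, which belong to the same programme, so calls of further cycle genes describe the classes. Genes scarce in low cells also reach 50 CPM only through the class where they are high, and can then only be called higher. Counts of measured cycle and histone genes called higher therefore follow in part from this filter.

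Of 38 other replication genes 14 were measured in S-high-only cells and all 14 were called higher, with median log2 folds of 2.80 and 3.14 against 0.11 and 0.13 over all measured genes. The checkpoint mediator CLSPN had 2.38 and 2.23 CPM in low cells and 82.5 and 79.6 CPM in S-high-only cells, 34.6-fold (19.7 to 63.3) and 35.6-fold (19.7 to 67.8) higher. DTL, which directs degradation of licensing factors, had 52.6 and 51.9 CPM, 79.5-fold and 28.6-fold higher. The other leading genes were FAM111B, ORC6, HIST1H1A, LMNB1, FEN1, TK1, ATAD2 and PCLAF, at 7.68-fold to 37.4-fold. The lowest of the 14, SLBP, which binds histone mRNA, was still 2.88-fold and 2.79-fold higher.

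The histone genes HIST1H1A and HIST1H4C were higher in cells high for both lists than in S-high-only cells. Replication-dependent histone mRNAs mostly lack a poly(A) tail, so 3′ capture sees only part of them, and their copies are near-identical. In cells high for both, 6 of 6 measured were called higher, where 22.6% of all measured genes were. Their median log2 folds were 3.17 and 3.14, against 0.19 and 0.22 over all measured genes. In S-high-only cells 2 of 3 measured were called higher, and in G2/M-high-only cells 1 of 2, so the measured sets differ between classes. HIST1H1C was not called in S-high-only cells, at 1.02-fold and 0.969-fold. The linker histone gene HIST1H1A had 6.88 and 4.33 CPM in low cells and 341 and 328 CPM in cells high for both. In S-high-only cells it had 84.2 and 61.1 CPM. HIST1H4C went from 72.8 and 73.7 CPM in low cells to 1418 and 1096 CPM in cells high for both, with 337 and 298 CPM in S-high-only cells.

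Of 42 other mitosis genes 29 were measured in G2/M-high-only cells and all 29 were called higher, with median log2 folds of 4.10 and 4.24 against 0.19 and 0.18 over all measured genes. Many of them, CENPA and HMMR included, reached the minimum level only in the class where they were high, so this count follows in part from the filter. CEP55, which recruits the abscission machinery, had 0.662 and 0.559 CPM in low cells and 92.0 and 103 CPM in G2/M-high-only cells, 139-fold (57.9 to 436) and 185-fold (70.2 to 689) higher. CENPA, the centromeric histone, was 123-fold and 118-fold higher. HMMR, a spindle protein, was 111-fold (62.5 to 219) and 119-fold (66.7 to 233) higher. PBK, DLGAP5, ASPM, DEPDC1, KIF23, NUF2 and NEK2 followed at 56.6-fold to 178-fold. At the low end of the list were CDC25B, the phosphatase that activates CDK1, at 3.18-fold and 2.87-fold, and TUBB at 2.84-fold and 2.85-fold.

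Inhibitors of the cycle were among the genes called lower. CDKN1A, the p21 inhibitor, had 158 and 139 CPM in low cells, 57.9 and 51.9 CPM in S-high-only cells and 67.2 and 66.4 CPM in G2/M-high-only cells. GADD45A, a stress-induced inhibitor, had 183 and 172 CPM in low cells and 54.4 and 84.3 CPM in G2/M-high-only cells. BTG1, an antiproliferative gene, had 696 and 667 CPM in low and 265 and 380 CPM in S-high-only cells. CDK4 was 2.42-fold and 2.22-fold higher in S-high-only cells, and neither CCND1 nor MYC was called in either class.

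MMP1, MMP9 and MMP10, proteases that cut extracellular matrix, were among the genes furthest lower in cycling cells. MMP1, interstitial collagenase, had 122 and 134 CPM in low cells. It had 1 and 0 UMIs in S-high-only cells, which is 69.4-fold (12.4 to 2745) lower in young. In aged the interval begins at 19.65-fold lower, and a floor of 3 counts over the class gives 24.2-fold. In G2/M-high-only cells it had 8 and 2.69 CPM, 15.2-fold (8.24 to 31.8) and 49.99-fold (17.1 to 243) lower. MMP9, a gelatinase, had 147 and 151 CPM in low cells, 15.8 and 16.7 CPM in S-high-only and 17.6 and 21.5 CPM in G2/M-high-only cells. MMP10 had 1 and 0 UMIs in S-high-only and 1 and 6 in G2/M-high-only cells, against 454 and 551 in low cells. The antimicrobial barrier gene S100A7 had 385 and 187 CPM in low and 42.4 and 19.7 CPM in G2/M-high-only cells. COL17A1, a hemidesmosome collagen, had 61.5 and 57.0 CPM in low and 7.20 and 8.97 CPM in G2/M-high-only cells. LCE3D, APOE, S100A8, IGFBP6 and SDCBP2 were the others of the 10 lowest there, 5.11-fold to 14.53-fold lower.

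By list, 9 of 14 measured invasion and mesenchymal genes were called lower in S-high-only cells (7.39% of all measured genes were) and 9 of 13 in G2/M-high-only cells (5.75%). Their median log2 folds were -0.85 and -0.69, and -1.38 and -1.01. None was called higher in either class. Among the highest were TAGLN at 1.47-fold and 1.74-fold in S-high-only cells and THBS1 at 1.05-fold and 0.964-fold in G2/M-high-only cells.

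Of 19 measured hypoxia and glycolysis genes, 14 were called lower in S-high-only cells (7.39% of all measured genes were) and 9 in G2/M-high-only cells (5.75%). Their median log2 folds were -1.25 and -1.45 in S-high-only cells, against 0.11 and 0.13 over all measured genes. In G2/M-high-only cells the medians were -0.89 and -0.57, against 0.19 and 0.18. The difference between the classes was not tested. ADM, a vasodilator peptide induced by low oxygen, had 168 and 171 CPM in low and 15.8 and 22.2 CPM in S-high-only cells, 10.6-fold (5.58 to 23.3) and 7.67-fold (4.38 to 14.9) lower. ANGPTL4, a lipase inhibitor induced by the same stimulus, had 126 and 124 CPM in low, 17.5 and 13.0 in S-high-only and 19.2 and 37.7 CPM in G2/M-high-only cells. The glycolytic enzyme gene ENO1 was not lower, at 1.11-fold and 1.09-fold in S-high-only cells. IGFBP3, LAMA3 and DEPP1 completed the 10 lowest genes of S-high-only cells with LCE3D, MMP10, MMP1, MMP9, ADM, ANGPTL4 and SDCBP2. IGFBP3, which binds insulin-like growth factors, had 579 and 543 CPM in low and 63.2 and 61.1 CPM in S-high-only cells.

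Genes of the basal keratin and adhesion list were called in both directions. KRT5 had 521 and 546 CPM in low and 1060 and 1333 CPM in S-high-only cells, and KRT14 had 736 and 759 CPM in low and 1604 and 1672 CPM in S-high-only cells. The laminin subunit genes LAMB3 and LAMA3 were lower, at 0.202-fold and 0.258-fold and at 0.104-fold and 0.151-fold. The keratin gene KRT6A, named after its values were seen, was also lower, at 0.251-fold and 0.585-fold. In all 2 of 17 measured genes of this list were higher and 8 lower in S-high-only cells (13.3% and 7.39% of all measured genes were). In G2/M-high-only cells 0 were called higher and 6 lower (15% and 5.75% of all measured genes), KRT6A among the latter at 0.324-fold and 0.198-fold. Oxidative phosphorylation genes moved little, with median log2 folds of 0.29 and 0.38 in S-high-only cells, against 0.11 and 0.13 over all measured genes. In G2/M-high-only cells the medians were 0.31 and 0.32, against 0.19 and 0.18. Of 27 genes, 3 and 2 were called higher in these classes, where 13.3% and 15% of all measured genes were. ATP5MC1, a subunit of ATP synthase, was 2.57-fold and 2.73-fold higher in S-high-only cells.

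Calls in 6 further lists were few or mostly lower. Over all measured genes, 13.3% were called higher and 7.39% lower in S-high-only cells, and 15% and 5.75% in G2/M-high-only cells. Of 8 measured genes for EGFR and growth factor ligands, 4 were called lower in each class, and of 9 squamous differentiation genes 3 were. Of 12 inflammatory and NF-kB genes, 1 was higher and 1 lower in S-high-only cells and 4 were lower in G2/M-high-only cells. Immediate early and heat shock genes had 2 of 22 lower in S-high-only cells, near the share of all genes. In G2/M-high-only cells 1 of 21 was higher and 3 were lower. Luminal keratins had 0 and 1 of 10 called, and interferon response genes 0 of 6 in either class.

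**Figure D4:**
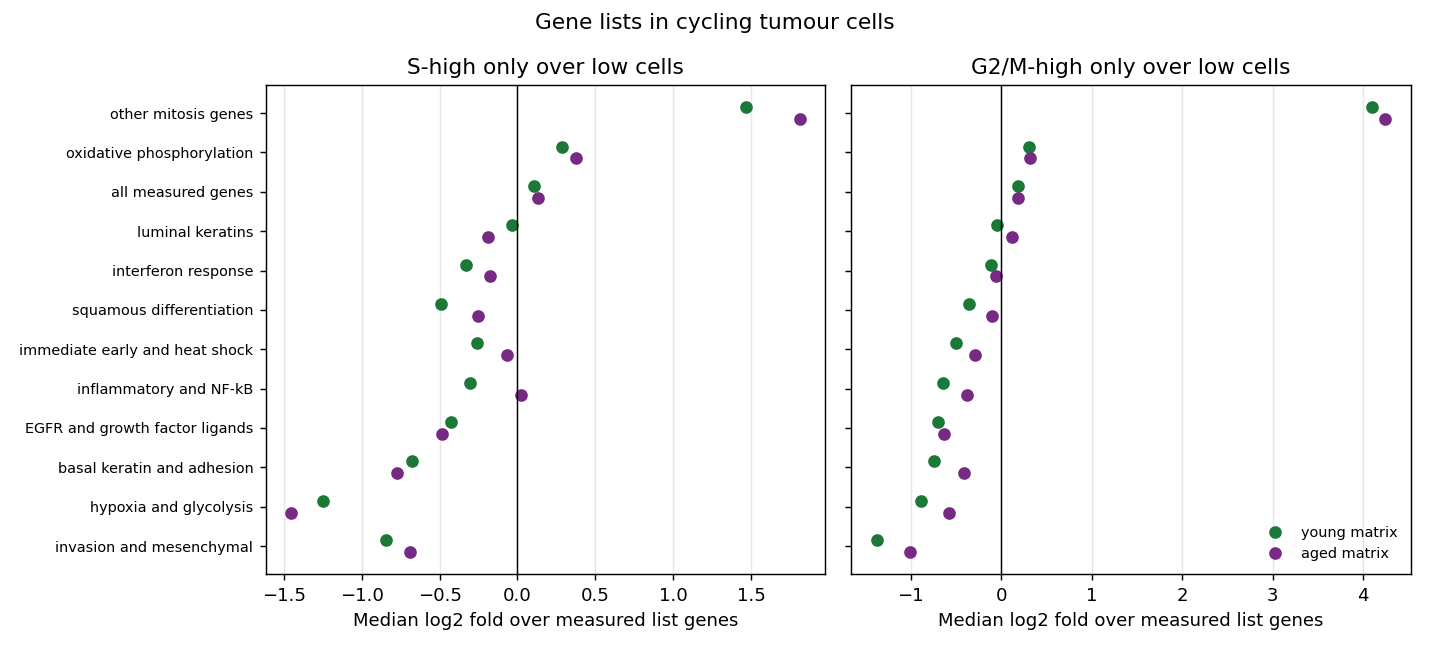
Median log2 fold of the measured genes of each list in S-high-only (left) and G2/M-high-only (right) cells over low cells, with 1 point per pool, for the lists reported here with at least 4 measured genes in both classes. Mitosis genes lie furthest to the right, and invasion and hypoxia genes lie to the left of all measured genes in both pools.

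Read the other way, the share of cycling cells followed the level of these lists. Cells of each pool were ranked on a list and cut into 4 groups of equal size, a division chosen after the class differences were seen that shows the same data from the other side. By invasion list UMIs, cycling cells made up 42.2% (37.8 to 46.7), 28.3%, 20.2% and 6.81% (4.76 to 9.39) of young cells from the lowest to the highest group, and 42.7%, 24.2%, 16.3% and 9.25% of aged cells. By hypoxia list UMIs the shares were 31.2%, 33.5%, 23.0% and 9.82% in young and 29.4%, 30.9%, 20.4% and 11.8% in aged cells, so the 2 lower groups were alike and the highest was low. By oxidative phosphorylation UMIs they ran upward, 7.40%, 19.6%, 29.2% and 41.3% in young and 6.87%, 17.0%, 25.8% and 43.0% in aged cells. All counts are at equal depth and share 1 total, so a list that takes more UMIs leaves fewer for the rest.

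Cells with at least 3 UMIs of MMP1, MMP9 and MMP10 were seldom cycling. These genes were picked for being low in cycling cells, so the low share follows from the choice and is a description. Of 174 such young cells 5 were cycling, 2.87% (0.939 to 6.58), and of 140 aged cells 5 were, 3.57% (1.17 to 8.14). Among the remaining cells 26.4% (24.4 to 28.5) and 24.7% (22.7 to 26.8) were cycling.

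**Figure D5:**
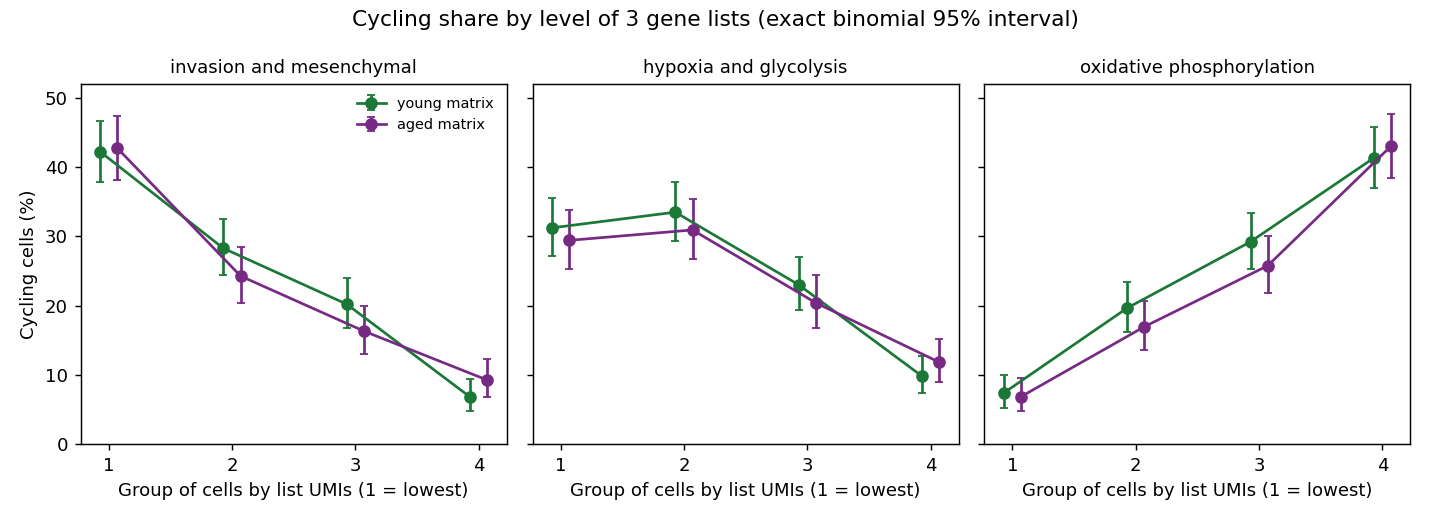
Share of cycling cells (%) by group of cells ranked on UMIs of the invasion, hypoxia or oxidative phosphorylation list at 5000 UMIs per cell, with exact binomial 95% intervals, in both pools. Shares fall from 42.2% and 42.7% to 6.81% and 9.25% across invasion groups and rise from 7.40% and 6.87% to 41.3% and 43.0% across oxidative phosphorylation groups.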

How the data were processed

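The 2 pools' matrices hold UMI counts per feature and barcode, deposited as made with Cell Ranger 6.0.0 on GRCh38 and mm10 per the submitters' processing notes. Every value is a whole count. Human barcodes had a human share of gene UMIs of at least 0.9, at least 500 UMIs, 300 genes and at most 20% mitochondrial UMIs. Scrublet (scanpy 1.11.5, expected rate 0.1) marked 2 and 2 human cells at its own threshold, so it did not work as a caller, and cells with a score of at least 0.25 were removed instead (123 and 172). Thinning drew 5000 UMIs per cell without replacement (seed 1).

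Levels are UMIs summed per pool or class as CPM, with exact Poisson, exact conditional ratio and Clopper-Pearson intervals at 95% (scipy 1.17.1). On simulated data, 100% of 200 genes changed 2-fold between pools were recovered among 5376 genes, and 98.5% of 200 between G2/M-high and low cells among 2522, with 0% false calls. Simulated cells of a class varied only in depth and Poisson counting, and the classes were set well apart. The real list levels ran on without a gap, so these rates do not carry over to the real cells.

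The members and lists were chosen with earlier results of these data known. Named genes are all 35 members, the 10 other genes called furthest higher and the 10 furthest lower in each of the S-high-only and G2/M-high-only classes, and up to 2 genes at each end of a list. Others are named after their values were seen. The result of 1 gene list is not reported here. Alternatives varied the doublet, species, tag, scaling, level, thinning and minimum settings. Promoters are from RefSeq GRCh38.p14, with orientation checked against GENCODE 29 transcripts. The series' design text speaks of 3 sequenced samples and does not say how animals map to the pools, so the spread between animals is not measured.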

Additional observations from a re-analysis of the deposited data

Results flagged for a closer look

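FAM3D, a secreted cytokine-like gene, went opposite ways in the pools and was the only measured gene called in opposite directions. In G2/M-high-only cells of the young pool it was at 0.560 times its level in low cells (0.439 to 0.705), 63.2 against 113 CPM, on 79 UMIs in 51 of 250 cells. In the aged pool it was at 1.55 times (1.28 to 1.87), 124 against 79.7 CPM, on 138 UMIs in 62 of 223 cells. The difference between the pools was not tested, and each pool is 1 library.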

How the results depend on the processing

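No paired analysis was possible because each group had 1 gene expression library. Under every alternative run, 0 cell cycle genes were 1.5-fold apart between the pools. Of 210 member ratios under alternatives, 53 left their own counting interval, over a range of 0.687 to 1.14. The summed G2/M ratio was 0.981 without doublet removal, 1.06 at a species share of 0.98, 0.875 in cells with 1 tag and 1.01 with cells weighted equally, and the S ratio was 0.902 in cells with 1 tag. Of all genes, 7 were apart with cells weighted equally and 7151 with no minimum level. Shares moved most with the minimum. At 3 list UMIs S-high, G2/M-high and cycling shares were 20.02%, 22.0% and 30.1% in young and 19.9%, 21.6% and 29.95% in aged cells, and at 8 they were 5.16%, 14.8% and 18.4% and 5.58%, 13.7% and 17.7%. In cells with 1 tag the young shares were 13.5%, 20.8% and 27.6%. At 2000 UMIs S-high and cycling shares were 14.9% and 27.03% in young and 14.51% and 25.4% in aged cells. The young S-high share was 10.3% at 10000 UMIs and 10.4% with another seed. Unthinned, S-high shares were 8.99% and 8.996%, and 22.0% of young cells were cycling. At 20 CPM 789 genes were higher and 382 lower in S-high-only cells, with 26 replication genes higher, and 805 and 298 in G2/M-high-only cells. At 200 CPM these were 74 and 48, and 99 and 40, with 1 replication and 12 mitosis genes higher, 6 and 4 hypoxia genes lower and 3 and 2 invasion genes lower, since fewer genes were measured. Of 639 values of named genes 0 reversed and 104 moved past their interval. The cause of the other moves was not tested. Keeping only cells of 20000 to 60000 UMIs, which left the counts of called genes within 1.5 times, and the 20 thinning draws were chosen after seeing the data. Depth limits CCNE2, CDC6, AURKB and the other low members, which have few UMIs per class.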

Other observations

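Mixed barcodes, with between 10% and 90% human gene UMIs, entered no comparison. Of those with at least 5000 human UMIs, 19.97% (16.8 to 23.5) of 581 in the young pool and 22.5% (18.8 to 26.6) of 453 in the aged pool were cycling by the same limits.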
